A study of Mus musculus with 12 samples.

Results

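The fragment pairs described here were captured together with a candidate distal enhancer of Dnmt3a that lies inside the neighbouring gene Dtnb. Members were chosen by position alone: both fragments of a pair had their midpoints within 1 Mb of the viewpoint at chr12:3692095 (mm10). In naive cells 2747 of the 4666 distinct fragment pairs of this viewpoint were local in this sense, and in primed cells 2157 of 3988. They carried 4415 of 6681 and 3204 of 5428 counts. Across all 23 viewpoints of the series the tables list 85863 distinct pairs in naive and 73304 in primed cells.

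The cells were J1, a mouse embryonic stem cell line (mESC). The naive group was cultured on gelatin in serum-free N2B27 medium with 2i inhibitors and LIF. The primed group was the same line after 7 days on Geltrex with Fgf2, Activin A and Knockout Serum Replacement. Each state had 3 biological replicates (6 samples for this pool of capture oligonucleotides), but the deposited tables pool the replicates of a state, so every interval below covers counting error only and no replicate test was possible. PCR copies of a read cannot be recognised in these tables, so the counts are not known to be independent molecules.

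Tri-C records DNA fragments that were ligated to one another in a single nucleus. Chromatin is crosslinked, cut with DpnII at its GATC sites and religated, and long ligation products that hold the viewpoint are enriched with a biotinylated oligonucleotide. A count in these tables is a pair of further fragments, the reporters, found on the same chromosome in a read that held the viewpoint. Reads with at least 2 reporters were used, so a read with more of them may add several counts, which the intervals treat as independent. Counts are therefore read as places that lay near the viewpoint together in one cell. Adjoining fragments left uncut would give the same record. Dnmt3a encodes a de novo DNA methyltransferase, which is upregulated when naive cells become primed. Besides the promoter of the full-length enzyme the gene has an internal promoter, from which embryonic stem cells make a shorter form. Dtnb encodes dystrobrevin beta, a protein of the dystrophin-associated complex.

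The oligonucleotide that defines the viewpoint covers chr12:3692095-3692194 (mm10), 100 bases on the plus strand. It is shown because every count below had to hold its fragment. It contains no GATC, so the captured fragment is uncut across it.

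Dnmt3a-116kb capture oligonucleotide: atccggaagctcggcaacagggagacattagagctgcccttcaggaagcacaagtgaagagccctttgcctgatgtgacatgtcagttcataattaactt

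The same letters had 1 match on chromosome 12 of the older NCBIM37 assembly, at chr12:3692095-3692194, within Dtnb and in no annotated exon, in a DpnII fragment of 147 bases between its GATC sites. Dtnb spans chr12:3572372-3785486 (mm10, RefSeq), so the viewpoint sits 119.7 kb inside the gene and 93.4 kb before its end. Dnmt3a spans chr12:3801559-3914443 on the same strand. Upstream and downstream are used below in the direction of both genes, with downstream towards Dnmt3a. The first Dnmt3a start in the RefSeq promoter table, at position 3806980, lies 114.9 kb downstream of the viewpoint. The internal start at position 3891744 lies 199.6 kb downstream and 84.8 kb from the first one, where the study also placed one of its other regulatory elements.

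The 250 bases before each of these starts are shown, from RefSeq (GRCm38.p6), because they lie in the DpnII fragments that hold the starts. Capitals mark CG.

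Dnmt3a first start, chr12:3806730-3806979, plus strand: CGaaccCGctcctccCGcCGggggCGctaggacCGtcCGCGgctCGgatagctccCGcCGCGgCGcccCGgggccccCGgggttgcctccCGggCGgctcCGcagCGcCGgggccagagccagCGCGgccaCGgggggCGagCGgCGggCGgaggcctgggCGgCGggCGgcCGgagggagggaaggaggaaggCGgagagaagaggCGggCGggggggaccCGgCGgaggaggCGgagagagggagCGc

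Dnmt3a internal start, chr12:3891494-3891743, plus strand: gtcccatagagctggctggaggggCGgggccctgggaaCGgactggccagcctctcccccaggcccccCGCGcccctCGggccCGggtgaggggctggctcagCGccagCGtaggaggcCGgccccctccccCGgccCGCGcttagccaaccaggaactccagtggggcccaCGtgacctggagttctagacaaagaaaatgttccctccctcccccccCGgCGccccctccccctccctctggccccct

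Neither stretch holds a GATC, a motif that reads the same on both strands and is present in 41.9% of 32851 RefSeq promoter stretches of this length. The first promoter holds 38 CG and the internal one 15, against a median of 6. Each start lay in 1 DpnII fragment together with the stretch shown, of 1054 bases (chr12:3806674-3807727) and 1162 bases (chr12:3890924-3892085). These fragments themselves appeared in few counts, and whether their length played a part was not tested. The first was seen in 2 naive and 0 primed counts, the internal one in 1 naive and 2 primed counts, and regions of 10 or 20 kb around the starts are used below.

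Before the comparison, 3 properties of the counts had to be set aside or measured. Reporters within 5 kb of the viewpoint took part in 663 naive and 485 primed local counts. These were left out, and shares below are of the remaining 3752 naive and 2719 primed counts (2333 and 1834 distinct pairs). A count adds once to a region, however many of its reporters fall there. A ratio is the primed share divided by the naive share, with an exact 95% interval in parentheses.

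Many pairs consisted of neighbouring fragments, separated by nothing but a GATC. They made up 42.6% of naive (interval 41.0 to 44.2%) and 39.8% of primed counts (37.9 to 41.6%). Of the pairs counted 5 times or more, 67.0% in naive and 67.2% in primed cells were neighbours, against 21.6% and 23.2% of the pairs counted once. The 2 states shared 267 neighbouring pairs, 37.9% of the naive and 48.5% of the primed ones. Of the other pairs they shared 47, which was 2.89% and 3.66%.

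A tandem array inside Ncoa1, 775 kb downstream, held counts of a different kind. At chr12:4466648-4468071 the tables list 32 fragments of 30 bases each, spaced by 34 bases. Counts with a reporter in the array numbered 44 in naive cells (1.17%) and 223 in primed cells (8.20%). In 211 of the 223 primed counts both reporters lay within its 1424 bases, against 19 of the 44 naive counts. The assembly NCBIM37 has 2 runs of GATC at this spacing on chromosome 12, of 20 and 22 sites, both in Ncoa1 outside annotated exons. In the longer run the unit appears in 6 versions over 21 repeats, the commonest 10 times and the next 4 times. Capitals mark the cutting site, and the units are shown because reads from near-identical fragments cannot be placed with confidence.

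Array unit, commonest: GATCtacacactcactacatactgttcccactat

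Array unit, second: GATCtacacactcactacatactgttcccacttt

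The array took a larger part of the primed total and so lowers every other primed share. Ratios are therefore also given without counts that touch it, over 3708 naive and 2496 primed counts. Repeated reads were weighed by counting each distinct pair 1 time. Leaving out the array or neighbouring fragments was chosen after the data had been seen.

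A smaller part of the contacts was local in primed cells. The local share of all counts was 66.1% in naive (64.9 to 67.2%) and 59.0% in primed cells (57.7 to 60.3%), a fall of 7.06 percentage points. Of the 10 other viewpoints with at least 400 counts, 8 also had a lower share in primed cells with intervals apart, and the median fall over the 10 was 7.27 points (range -4.61 to 14.4). The fall at Dtnb was thus in the middle of the series. Within the window, the share of counts with a reporter over 100 kb away was 58.4% in naive and 56.9% in primed cells. Without the array these were 57.9% and 53.0%, a ratio of 0.92 (0.85 to 0.98). With all counts, at the other viewpoints it changed by a median of 7.25 points upwards (range -9.10 to 17.3), and 7 of them lay above the -1.54 points seen here.

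The ratio between the states varied with the distance from the viewpoint. Close to the viewpoint, at 5 to 20 kb, the primed shares were higher: 8.72% against 11.8% upstream, a ratio of 1.36 (1.16 to 1.59), and 7.60% against 10.2% downstream, 1.35 (1.14 to 1.59). From 20 to 50 kb both intervals held 1, though the downstream one did not without the array (1.23, 1.04 to 1.46), and from 50 to 100 kb the ratio was 0.75 upstream (0.64 to 0.87) and 1.04 downstream (0.91 to 1.19). At 100 to 200 kb upstream the share was lower in primed cells, 10.3% against 6.44%, a ratio of 0.63 (0.52 to 0.75). At 100 to 200 kb downstream, the range that holds most of Dnmt3a, it was 14.1% against 10.8%, a ratio of 0.77 (0.67 to 0.89).

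Beyond Dnmt3a the pattern was uneven. From 200 to 400 kb downstream the ratio was 0.88 (0.77 to 1.00), from 400 to 700 kb it was 0.71 (0.60 to 0.84), and from 700 to 1000 kb it was 2.35 (2.00 to 2.76). Without the array the last value was 1.43 (1.17 to 1.76), so the far downstream end remained higher in primed cells in that setting. Over distinct pairs without the array it was 1.27 (1.01 to 1.59). Without neighbouring fragments as well its interval held 1 (1.22, 0.92 to 1.61). On the upstream side the ratios at 200 to 400 kb and 400 to 700 kb were 1.02 (0.81 to 1.27) and 1.07 (0.77 to 1.48), and no fragment was listed further than 691 kb upstream, where the assembled sequence of the chromosome begins.

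**Figure D1:**
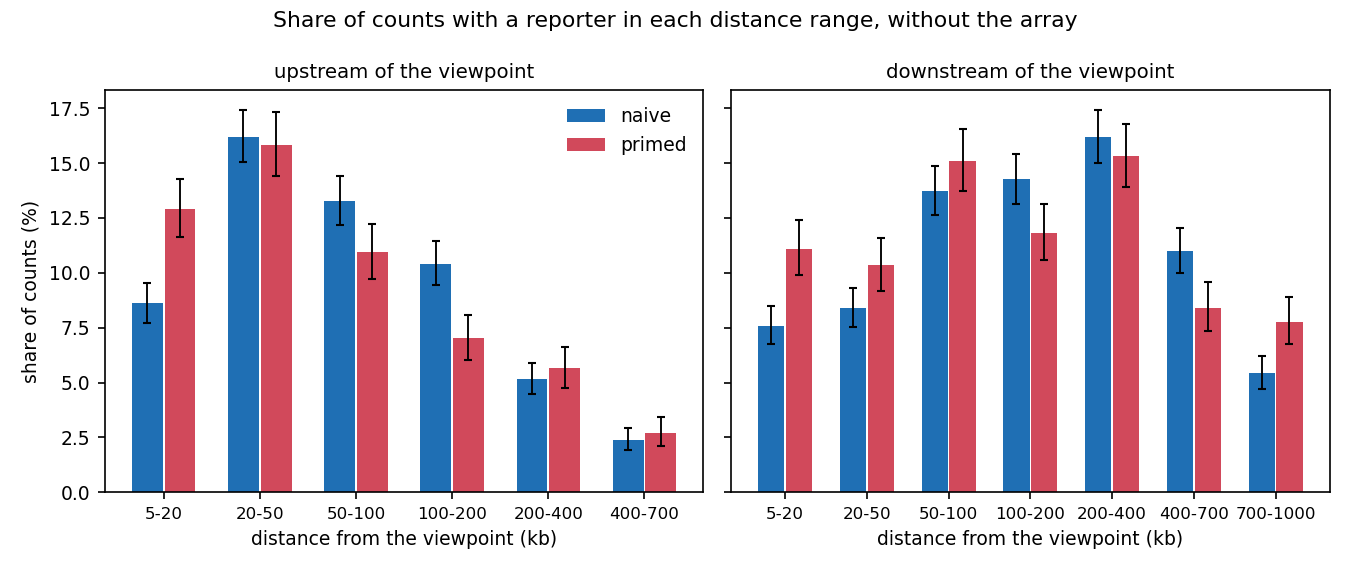
Share of local counts (y axis, percent) with a reporter in each range of distance from the viewpoint (x axis, kb), upstream on the left and downstream on the right, for naive (blue) and primed (red) cells, without counts that touch the tandem array. Error bars are exact 95% intervals of the pooled counts. The primed bars are taller at 5 to 20 kb and at 700 to 1000 kb, and shorter at 100 to 200 kb on both sides.

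When each distinct pair counted 1 time and the array was left out, the 100 to 200 kb upstream range kept an interval below 1 (0.73, 0.59 to 0.90) and the 5 to 20 kb upstream range one above 1 (1.25, 1.02 to 1.53). The downstream ranges at 5 to 20 kb and at 100 to 200 kb had ratios of 1.23 (0.99 to 1.53) and 0.88 (0.75 to 1.04). From 400 to 700 kb downstream, where 1 naive pair had 49 counts, the ratio was then 0.89 (0.74 to 1.08), and from 50 to 100 kb upstream it was 0.90 (0.74 to 1.09).

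Both reporters lay upstream in 34.3% of naive and 29.1% of primed counts, a ratio of 0.85 (0.77 to 0.93). They both lay downstream in 50.1% and 56.4%, a ratio of 1.12 (1.05 to 1.20). Without the array the downstream ratio was 1.05 (0.98 to 1.12) and the upstream one 0.91 (0.83 to 1.00). Over distinct pairs without the array the upstream interval held 1 (0.94, 0.83 to 1.06). Counts that straddled the viewpoint, with 1 reporter on each side, made up 15.5% and 14.6% (0.94, 0.82 to 1.07). Most multi-way contacts of this element thus stayed on one side of it in both states, also without the array and neighbouring fragments, where 562 of 2111 naive and 396 of 1421 primed counts straddled.

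Reporters in Dnmt3a were found with the Dtnb viewpoint in both states, and the share of the gene was no higher in primed cells. The counts were not set against those that distance alone would give. A reporter fell in the gene in 542 of 3752 naive counts (14.4%) and 317 of 2719 primed counts (11.7%), a ratio of 0.81 (0.70 to 0.93). Without the array the ratio was 0.87 (0.75 to 1.00), and over distinct pairs without the array it was 0.91 (0.78 to 1.07). The fall in the share of the gene as a whole was therefore not apart from 1 once repeated pairs were counted 1 time.

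At the first start of Dnmt3a, in the 20 kb centred on it (chr12:3796980-3816979), there were 137 naive counts (3.65%) and 77 primed counts (2.83%). The ratio was 0.78 (0.58 to 1.03), and without the array 0.83 (0.62 to 1.11). Neither interval excluded equality. The interval lay below 1 with a width of 10 kb (0.66, 0.44 to 0.99) or 40 kb (0.82, 0.67 to 1.00), over all counts of the table (0.69, 0.52 to 0.92) and without neighbouring fragments (0.66, 0.46 to 0.94), all with the array kept. It also lay below 1 with a width of 10 kb without the array and neighbouring fragments (64 and 26 counts, 0.60, 0.37 to 0.97). It held 1 over distinct pairs (0.78, 0.56 to 1.08), with a width of 10 kb without the array (0.71, 0.47 to 1.07), and with the width of 20 kb without the array and neighbouring fragments (0.75, 0.52 to 1.06).

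At the internal start the primed share was lower. The 20 kb placed at the 85 kb element of the study (chr12:3881980-3901979), which holds this start, had 95 naive counts (2.53%) and 35 primed counts (1.29%), a ratio of 0.51 (0.33 to 0.76). Without the array it was 0.55 (0.36 to 0.81), and over distinct pairs without the array 0.69 (0.44 to 1.05). Within 5 kb on each side of the internal start, a width chosen after the values were seen, 69 naive and 17 primed counts gave 0.34 (0.19 to 0.58), and distinct pairs without the array gave 0.46 (0.24 to 0.83). No single pair carried this: the most frequent pair of the naive cells at that place had 9 counts and that of the primed cells 2. The rest of the gene, without the 20 kb at each start, had 363 and 230 counts and a ratio of 0.87 (0.74 to 1.03).

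Of the counts with a reporter in Dnmt3a, the second reporter was most often in Dnmt3a too, in 275 of 542 naive (50.7%) and 180 of 317 primed counts (56.8%). Without neighbouring fragments these were 99 of 365 (27.1%) and 70 of 205 (34.1%), and both parts of Dtnb together then held more of the second reporters than Dnmt3a in each state. The second reporter lay in the part of Dtnb downstream of the viewpoint in 73 naive and 47 primed counts, and in the part upstream of it in 90 and 38. Of the Dnmt3a counts those are 13.5% and 14.8%, then 16.6% and 12.0%, the last pair with a ratio of 0.72 (0.48 to 1.07). A further 67 and 33 counts reached beyond the end of Dnmt3a. The partners of Dnmt3a in these multi-way contacts did not differ between the states beyond counting error.

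Joint contacts of the viewpoint with 2 named elements were almost absent. The study followed further Dnmt3a elements 85 kb, 175 kb and 551 kb downstream of the gene's start, the second inside Efr3b and the third inside Ncoa1. Over the 6 pairs that can be formed from the Dnmt3a start and these 3 elements, 1 naive and 2 primed counts were found. The first start was joined with the 85 kb element in 0 naive and 1 primed count, with the 175 kb element in 1 and 1, and with the 551 kb element in 0 and 0. With elements 40 kb wide, the start and the 85 kb element were joined in 5 naive and 2 primed counts. Taking 3 counts as the limit of a count of 0, shares of up to 0.0800% in naive and 0.110% in primed cells could have been missed, and rarer hubs could not be seen at this depth. Both reporters fell within the 20 kb of the first start in 44 and 33 counts, a ratio of 1.03 (0.64 to 1.66).

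Taken singly, the 175 kb element had 65 naive and 35 primed counts (0.74, 0.48 to 1.14). The 551 kb element had 26 and 22 (1.17, 0.63 to 2.14). A separate viewpoint placed near the 551 kb element yielded 15 naive and 3 primed counts in all, and none had a reporter within 10 kb of the Dtnb viewpoint.

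**Figure D2:**
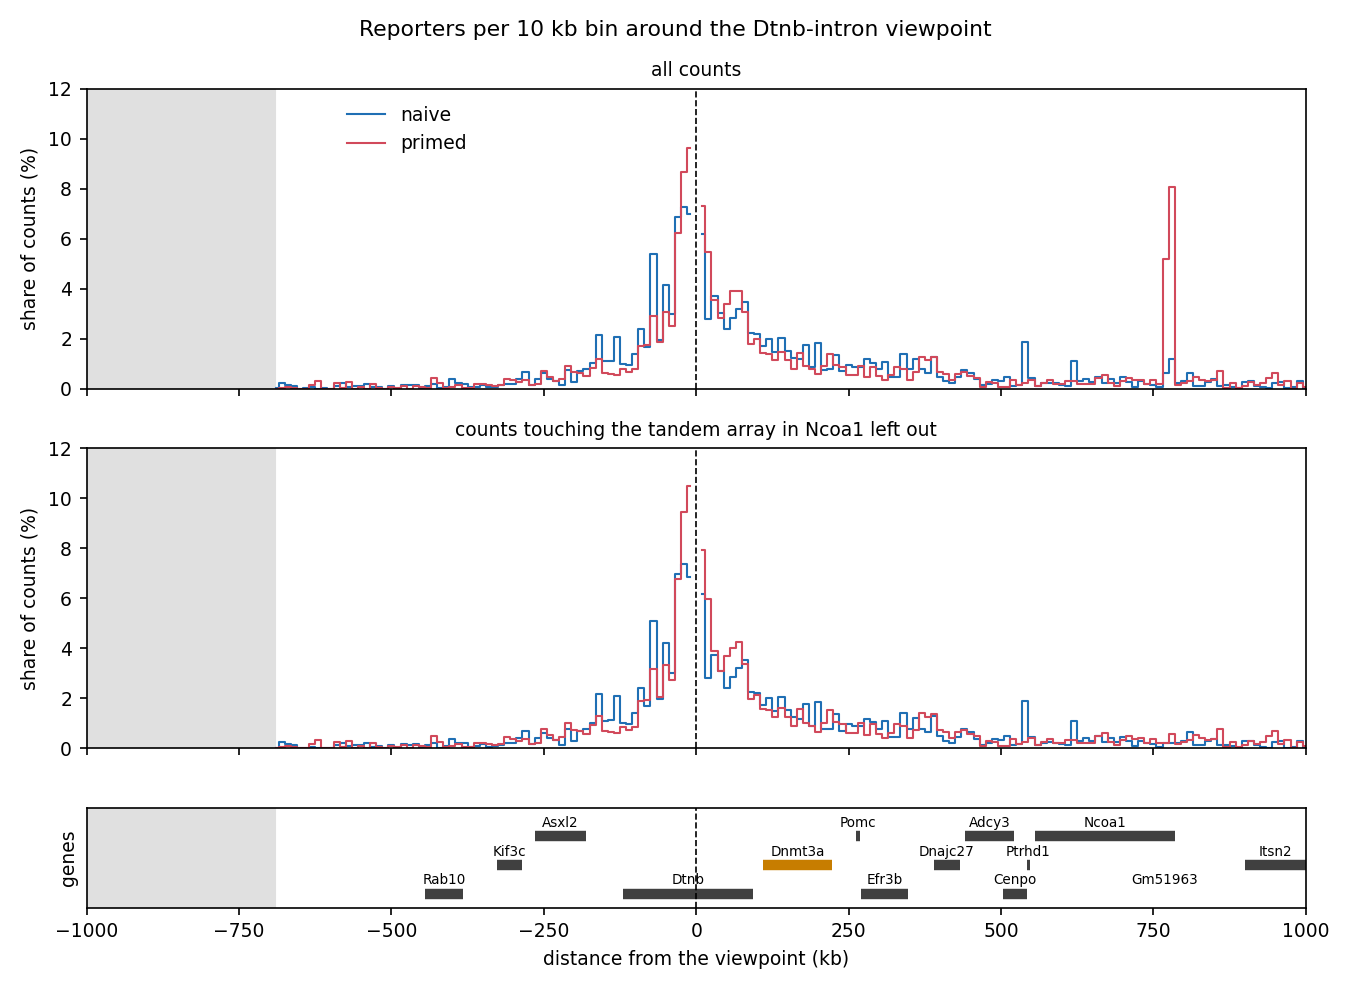
Share of local counts (y axis, percent) with a reporter in each 10 kb bin against distance from the viewpoint (x axis, kb) in naive (blue) and primed (red) cells, with all counts (top) and without counts that touch the tandem array (middle), above the protein-coding genes (bottom, Dnmt3a in orange). The bin of the viewpoint is left out and the grey area lies beyond the first fragment listed. The primed peak near 775 kb is gone in the middle panel, and the naive line stands above the primed one at -130 kb, 200 kb and 540 kb.

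Dtnb, the gene that holds the viewpoint, was the most frequent partner. A reporter lay in it in 2179 naive (58.1%) and 1572 primed counts (57.8%), a ratio of 1.00 (0.93 to 1.06), and without the array 1.08 (1.01 to 1.15). Its parts on each side of the viewpoint gave different ratios. Upstream of the viewpoint the counts were 1380 and 910 (0.91, 0.84 to 0.99), and downstream, towards Dnmt3a, they were 993 and 813 (1.13, 1.03 to 1.24). Without the array the values were 0.99 (0.91 to 1.08) and 1.21 (1.10 to 1.33). Over distinct pairs without the array both intervals held 1 (0.99, 0.89 to 1.10, and 1.09, 0.97 to 1.22).

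Among the 5 most frequent pairs of each state were several in Dtnb. A neighbouring pair at -66.5 kb had 45 naive and 4 primed counts, and one 14 kb downstream had 17 and 20. Repeated reading of 1 ligation product, fragments left uncut and repeated contact cannot be told apart for such pairs.

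Of the 14 protein-coding RefSeq genes in the window, 12 had at least 20 counts over both states. A gene or bin was called where its share differed at least 1.5-fold and the interval excluded 1. By that rule 1 gene of 12 was higher in primed cells (8.33%) and 1 was lower (8.33%), and without the array 2 were higher (16.7%) and 1 lower.

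Upstream of Dtnb no gene was called with all counts. Asxl2, a chromatin regulator of the Polycomb-associated ASXL family, had 133 naive and 117 primed counts (1.21, 0.94 to 1.57). Kif3c, a kinesin motor subunit, had 26 and 31 (1.65, 0.95 to 2.88), and without the array it was called higher at 1.77 (1.02 to 3.11), but over distinct pairs without the array the ratio was 1.55 (0.87 to 2.80). Rab10, a small GTPase of vesicle transport, had 41 and 25 (0.84, 0.49 to 1.42). Upstream genes thus made up a small part of the contacts in both states.

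Just downstream of Dnmt3a, Efr3b, whose product anchors a lipid kinase at the plasma membrane, had 254 naive (6.77%) and 125 primed counts (4.60%). Its ratio of 0.68 (0.54 to 0.84) did not reach 1.5-fold, and it was 0.73 (0.59 to 0.91) without the array and 0.75 (0.58 to 0.96) over distinct pairs without it. Efr3b was the gene whose lower share in primed cells stayed apart from 1 in all 3 of these settings. Pomc, the hormone precursor gene beside it, had 18 and 15 counts (1.15, 0.54 to 2.42).

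Further on, Dnajc27, a J-domain GTPase gene, had 61 and 53 counts (1.20, 0.81 to 1.76), and Adcy3, an adenylyl cyclase gene, 106 and 60 (0.78, 0.56 to 1.08). Cenpo, which encodes a kinetochore protein and overlaps Adcy3 by its span, was called lower with 94 naive and 18 primed counts (0.26, 0.15 to 0.44). A single fragment pair gave 49 of the naive counts and 0 of the primed ones. Over distinct pairs without the array the ratio was 0.79 (0.40 to 1.52), an interval that held 1. Ptrhd1 had 7 and 2 counts and Gm51963 had 0 and 4, too few for a comparison.

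Ncoa1, a nuclear receptor coactivator gene, was called higher with 260 naive (6.93%) and 376 primed counts (13.8%), a ratio of 2.00 (1.70 to 2.35). Outside the array it had 216 and 157 counts and a ratio of 1.00 (0.81 to 1.24), so the difference lay within the array. Itsn2, an endocytic scaffold gene at the downstream edge of the window, had 50 and 54 counts (1.49, 1.00 to 2.23). Without the array it was called higher at 1.60 (1.07 to 2.41), and over distinct pairs without the array its ratio was 1.58 (1.03 to 2.43).

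**Figure D3:**
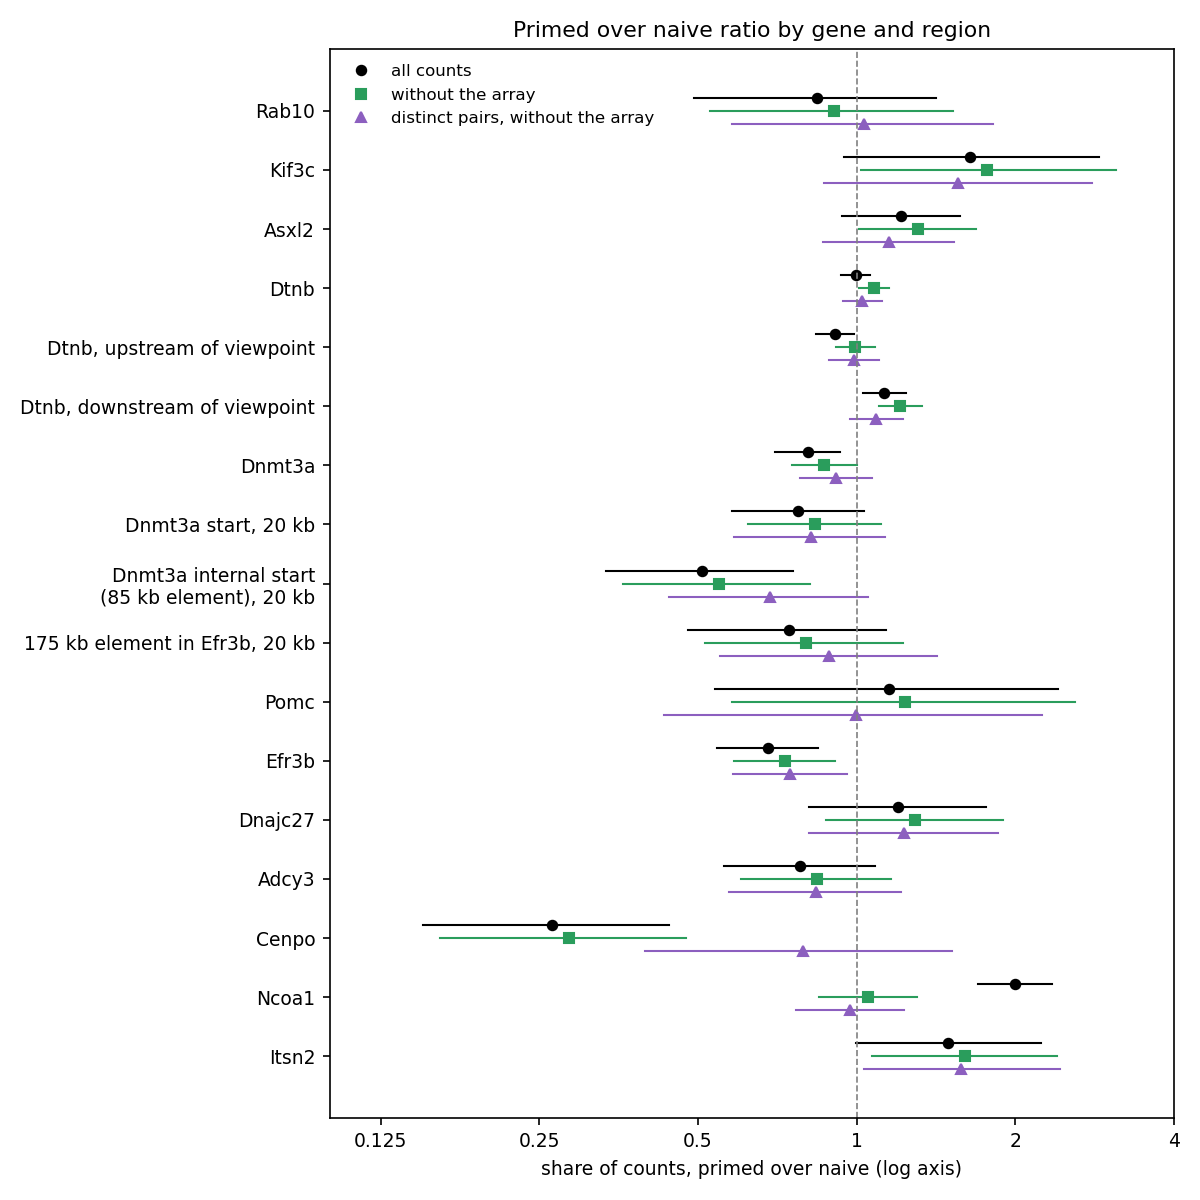
Primed over naive ratio of the share of counts (x axis, log scale) for genes and regions from upstream to downstream (y axis), with all counts (black circles), without the tandem array (green squares) and over distinct pairs without the array (purple triangles). Lines are exact 95% intervals of the pooled counts. Cenpo and Ncoa1 depart from 1 with all counts but not over distinct pairs without the array, and Efr3b lies below 1 in each setting.

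In 10 kb bins centred on the viewpoint, 166 bins were occupied and 89 had at least 20 counts over both states. Of these, 9 were higher in primed cells (10.1%) and 14 were lower (15.7%), with a median ratio of 0.88 over the 89. Upstream, 1 of 27 bins was higher and 5 were lower, and downstream 8 of 62 were higher and 9 lower. Without the array 12 of 88 bins were higher (13.6%) and 10 lower (11.4%), and without the array and neighbouring fragments 6 of 72 were higher (8.33%) and 6 lower (8.33%). Counting distinct pairs left 3 higher (3.85%) and 4 lower (5.13%) of 78 bins, and without the array and neighbouring fragments as well 1 higher (1.54%) and 5 lower (7.69%) of 65. The calls thus turned from more lower than higher to more higher than lower when the array was left out, and were fewer over distinct pairs, which also gave wider intervals.

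A pair of bins was called lower in each of 7 settings in which single bins were followed: all counts, without the array, without neighbouring fragments, without both, and distinct pairs with all fragments, without the array, or without both. One was the bin at 200 kb, which holds the internal start of Dnmt3a, with 68 naive (1.81%) and 16 primed counts (0.59%) and a ratio of 0.32 (0.18 to 0.57). It covers nearly the same bases as the window around the internal start above, so it repeats that result. The other, at -130 kb (chr12:3557095-3567094), lies just upstream of the start of Dtnb and overlaps no RefSeq gene. It had 78 naive (2.08%) and 15 primed counts (0.55%), a ratio of 0.27 (0.14 to 0.46). Over distinct pairs without the array these ratios were 0.44 (0.23 to 0.81) and 0.43 (0.21 to 0.83). All 7 settings draw on the same counts, so a call in each of them is not independent support. A bin in Efr3b at 280 kb was lower with all counts (44 and 13) and over distinct pairs without the array (0.41, 0.19 to 0.82), while without neighbouring fragments alone its interval reached 1 (0.49, 0.21 to 1.04). Of the bins called higher, the one at 950 kb, in Itsn2, was also called over distinct pairs without the array (2.83, 1.16 to 7.58), with 9 naive and 17 primed counts and a ratio of 2.61 (1.10 to 6.64). The 950 kb bin was not called in any setting without neighbouring fragments. The higher bins at -200 kb, 20 kb and 780 kb were still called without the array and neighbouring fragments. The bins at 280 kb and 950 kb were named after their values were seen.

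Among bins with at least 30 counts, the lowest ratio was in Cenpo at 540 kb, with 70 and 6 counts (0.12, 0.04 to 0.27). It was followed by the bin at -130 kb and by one in Ncoa1 at 620 kb, with 41 and 8 counts (0.27, 0.11 to 0.58). The highest were the bins of the array, at 770 kb with 24 and 141 counts (8.11, 5.23 to 13.1) and at 780 kb with 44 and 220 (6.90, 4.97 to 9.77). Without the array they were 0.93 (0.24 to 3.22) and 2.97 (1.12 to 8.70). The next was at 20 kb, in Dtnb, with 104 and 149 counts (1.98, 1.53 to 2.56). Over distinct pairs without the array the bins at 20 kb, 540 kb and 620 kb lost their calls, with 1.24 (0.88 to 1.75), 0.61 (0.16 to 1.89) and 0.44 (0.14 to 1.17).

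Pairs of 50 kb bins describe which places were joined with the viewpoint at the same time. Naive counts occupied 262 such pairs and primed counts 225, and 50 had at least 20 counts. Of these, 6 were higher in primed cells (12%) and 6 were lower (12%). All the lower ones and 5 of the higher ones had both reporters in the same bin. Over distinct pairs without the array, the only lower one with an interval still below 1 was the bin at -150 kb with itself. Of the higher ones, only the bins at 750 kb (2.66, 1.01 to 7.80) and 950 kb with themselves kept intervals above 1. Among the 23 pairs of different bins, 1 was higher and 0 lower, and the higher one joined the bins at 750 kb and 800 kb that meet at the array, with 10 and 120 counts (16.6, 8.70 to 35.4). Without the array this pair of bins had 1 naive and 1 primed count.

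The next highest pairs of bins were again in Ncoa1: within the 750 kb bin 9 and 34 counts (5.21, 2.45 to 12.4) and within the 800 kb bin 28 and 89 (4.39, 2.84 to 6.97). Without the array the first was 3.71 (1.57 to 9.75) and the second turned to 0.55 (0.19 to 1.36). The highest was then the bin at 950 kb with itself, in Itsn2, with 7 and 21 counts (4.46, 1.83 to 12.4), and over distinct pairs without the array it was 3.81 (1.55 to 10.7). Lowest was the bin at 550 kb with itself, which holds the repeated pair in Cenpo, with 75 and 9 counts (0.17, 0.07 to 0.33). The bin at -150 kb with itself, between Asxl2 and Dtnb, had 159 naive and 41 primed counts (0.36, 0.25 to 0.50), and its ratio over distinct pairs without the array was 0.54 (0.35 to 0.82). Contacts within Dnmt3a between the bins at 150 kb and 200 kb had 19 and 5 counts (0.36, 0.11 to 1.01), as had contacts of the bin at -50 kb, in Dtnb, with the bin at 200 kb. Both intervals reached 1.

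**Figure D4:**
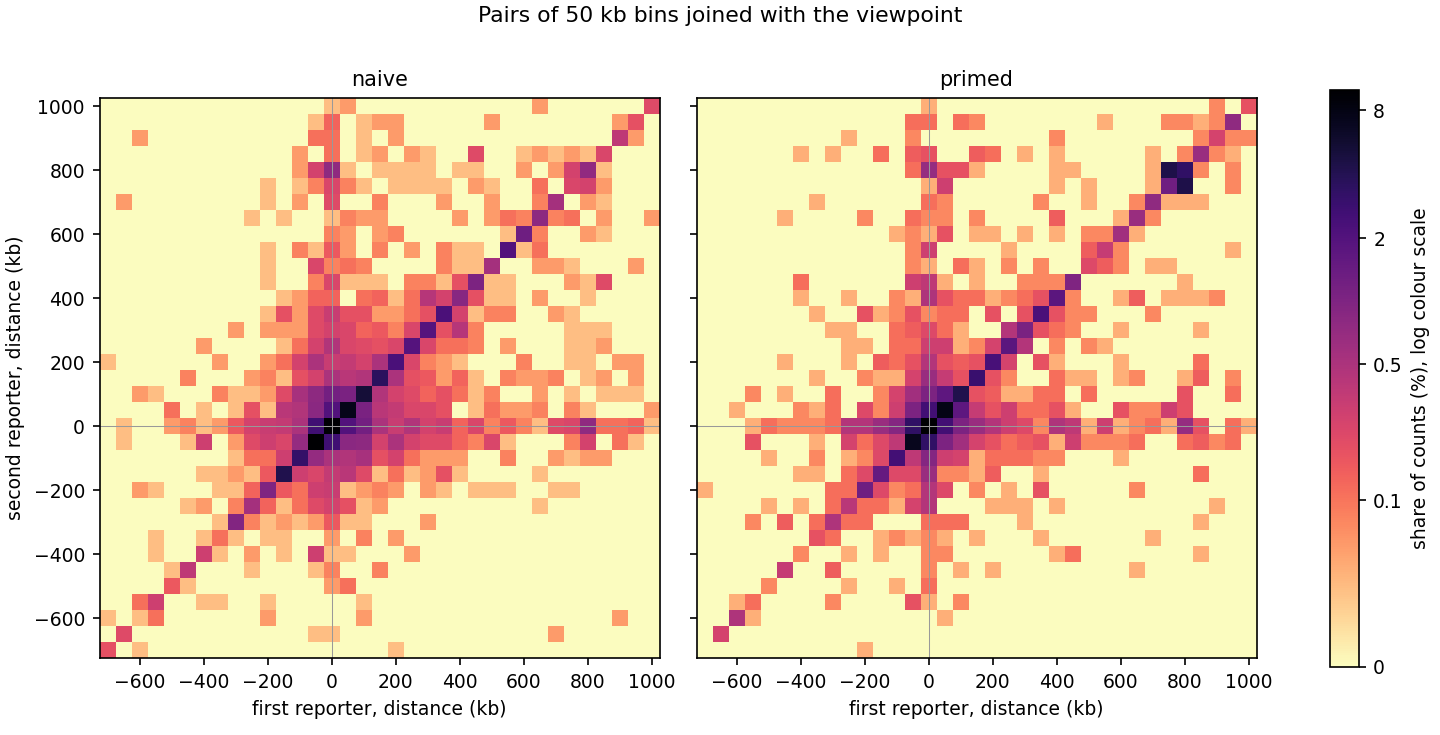
Share of local counts (colour, percent, log scale) that joined the viewpoint with a first and a second reporter (axes, distance from the viewpoint in kb) in 50 kb bins, for naive (left) and primed (right) cells. The diagonal holds counts with both reporters in one bin, and the dark block near 775 kb in the primed map is the tandem array in Ncoa1.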

How the data were processed

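Per the study's methods, the authors ran CapCruncher (capture mode, mm10) and kept reads with at least 2 cis reporters. The deposited tables hold whole-number counts, not normalized, for each pair of DpnII fragments, with the 3 replicates of a state pooled; the sources used here give no versions. Positions were made 1-based, and distances run from fragment midpoints to the first base of the oligonucleotide. Shares have exact (Clopper-Pearson) 95% intervals, and ratios of shares have exact intervals from the split of the summed counts (SciPy 1.17.1, pandas 2.3.3). The calling step was run on simulated independent counts. These lack the repeated pairs and neighbouring fragments seen here, so they cannot show how the calls behave on such counts. Named items were all protein-coding genes, the Dnmt3a starts, the study's elements, the 3 highest and lowest 10 kb bins with at least 30 counts, the 3 highest and lowest pairs of 50 kb bins with at least 20 counts, and the 5 most frequent fragment pairs. Members and lists were chosen with earlier results of these data known. The alternatives changed the window, the excluded region, the denominator, the widths, the fold, and the treatment of repeated pairs. Sequences came from the study's oligonucleotide list, RefSeq promoters (GRCm38.p6) and NCBIM37.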

Additional observations from a re-analysis of the deposited data

How the results depend on the processing

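No paired analysis was possible because each state has 1 pooled table, and no replicate could be left out. Of the alternatives planned with the design, 45 values stayed within their interval or within 1.5 times the count and 12 moved, and of those added after the data were seen 24 stayed and 6 moved. The ratios of Dtnb and of straddling counts crossed 1, the latter at 0.94 with all counts, 1.05 without the array and 0.85 with 15 kb excluded. The ratio at the Dnmt3a start ranged from 0.66 to 0.84 and that of Dnmt3a from 0.72 to 0.87. With a 500 kb window the ratio of the local share was 0.83, that of the share over 100 kb away 0.89 and that of Dtnb 1.07. Dtnb had 1.08 without the array, 1.08 without the array and neighbouring fragments, and 0.89 over all counts of the table. The ratio with both reporters downstream was 1.05 without the array and 1.03 without the array and neighbouring fragments. With elements 40 kb wide, 7 counts joined the Dnmt3a start with the 85 kb element (5 naive, 2 primed) and 1 joined it with the 551 kb element. The bins higher in primed cells numbered 3 over distinct pairs, 4 over all counts of the table, 5 at 2-fold and 3 without neighbouring fragments. The bins lower numbered 4, 24 and 7 under the first 3 of these, and 6 without the array and neighbouring fragments. The cause of these changes was not tested. Depth limits the joint contacts, since regions of 20 kb met in single counts.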

Other observations

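The array of 30-base fragments in Ncoa1 held a pair with 20 and a pair with 15 primed counts, among the 5 most frequent outside 5 kb, and neither was seen in naive cells. Its primed counts with both reporters inside the array came from 100 distinct pairs, against 16 in naive cells. Counts that joined the array with a fragment elsewhere numbered 25 in naive and 12 in primed cells. A bin at 860 kb, beyond Ncoa1, had 4 naive and 19 primed counts and was called higher with all counts. Over distinct pairs without the array its ratio was 4.66 (1.46 to 19.5), but it held under 20 pairs there and was not called. This bin was picked after its values were seen.

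In naive cells the most frequent pair outside 5 kb lay in Cenpo, with 49 counts of fragments of 911 and 25 bases separated by 30 bases, and it was not seen in primed cells. A neighbouring pair between Efr3b and Dnajc27, 360 kb downstream, had 15 naive and 0 primed counts.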
